A study of Mus musculus with 6 samples.

Results

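Axon guidance genes encode the ligands and receptors that steer growing axons and migrating cells. The set described here held 64 of the 21911 protein-coding genes of the mouse annotation, chosen by symbol. It was made of 20 semaphorins, 11 plexins and neuropilins, 14 Eph receptors, 8 ephrins, 7 Slits and Robos and 4 netrins. Membership rested on the symbol alone, but the set was chosen with earlier results of these data known.

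The mark measured was H3K4me3, trimethylation of lysine 4 on histone H3, by ChIP-Seq in STHdh cells, an immortalised mouse striatal progenitor line of strain C57BL/6. There was 1 deposited peak list for each of 6 conditions, all after 24 hours of serum starvation. Q7SST was the wild type line (STHdhQ7) with vehicle, and Q111SST was the line that expresses polyglutamine-expanded huntingtin (STHdhQ111) with vehicle. The other 4 lists came from STHdhQ111 cells given cyproheptadine, loxapine, DKI (diacylglycerol kinase inhibitor II) or meclizine at 10 uM. Each genotype was a single cell line, so genotype and line cannot be told apart. The design text names triplicate treatment, but a single list stood for each condition, so lists could not be tested against replicate error and their differences are descriptions.

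Semaphorins signal through plexins, and the secreted class does so with neuropilins as co-receptors. Ephrins are membrane-bound ligands of the Eph receptor tyrosine kinases, Slits are secreted ligands of the Robo receptors, and netrins are secreted cues related to laminins. In the developing striatum and cortex these systems guide axon tracts and set boundaries between groups of cells. H3K4me3 gathers at the starts of genes that are active or poised for activity, mostly at starts rich in CpG dinucleotides.

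The lists held from 30758 peaks under DKI and 33721 under cyproheptadine to 45564 under loxapine, and the depth behind each list is unknown. As a check of the cell label, 5 of 9 progenitor markers had a peak at a start in all 6 lists, Dlx1 and Dlx2 among them, and 4 had one in some lists, Nes, Sox2 and Gsx2 among them. Of 6 markers of striatal projection neurons, 0 had a peak in all 6 lists, 4 had one in some and 2, the dopamine receptor genes Drd1 and Drd2, in none. The 4 were all marked in Q7SST, Penk in 5 lists, Ppp1r1b in 4, and Adora2a and Tac1 in Q7SST alone. Of 3 astrocyte markers, Gfap was marked in 5 lists, all but Q7SST, Aldh1l1 in 4 and Aqp4 in 0. Of 3 microglia markers, Aif1 was marked in 2 lists, P2ry12 in 1 and Cx3cr1 in 0, and of 3 markers of the oligodendrocyte lineage, Mbp was marked in 1 list and Olig1 and Olig2 in 0. Of 4 mesenchymal markers, 3 were marked in all 6 lists and Col1a2 in all but Q7SST. Adora2a, Tac1 and Gsx2, marked in Q7SST alone, and Gfap, Col1a2 and Sox2, marked in all lists but Q7SST, thus moved with the comparison of the 2 vehicle lists. The part of these other cell types in any result below was not tested.

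The sequence before a start shows how differently these genes are built. The following 150 bases precede the outermost annotated start of 4 members (GRCm38, 5′ to 3′ on the strand of the gene), with CG dinucleotides in capitals. In this stretch Epha8 and Plxnb3 had the most and the fewest CpG among members marked in none. Epha3 was the strongest of the members marked in 1 list, and Sema3g was the only member marked in Q111SST alone.

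Epha8, chr4:136956817-136956966, minus strand: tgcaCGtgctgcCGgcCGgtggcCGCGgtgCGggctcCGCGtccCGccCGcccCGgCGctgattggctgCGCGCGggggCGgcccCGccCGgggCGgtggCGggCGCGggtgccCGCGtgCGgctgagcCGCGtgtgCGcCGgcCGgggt
Plxnb3, chrX:73756940-73757089, plus strand: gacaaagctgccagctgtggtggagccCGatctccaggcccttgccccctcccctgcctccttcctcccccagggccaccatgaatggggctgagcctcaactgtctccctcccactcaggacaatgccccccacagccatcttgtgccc
Epha3, chr16:63864176-63864325, minus strand: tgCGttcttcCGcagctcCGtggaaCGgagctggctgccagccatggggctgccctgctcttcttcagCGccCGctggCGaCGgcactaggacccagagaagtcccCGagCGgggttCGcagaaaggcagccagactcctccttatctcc
Sema3g, chr14:31217710-31217859, plus strand: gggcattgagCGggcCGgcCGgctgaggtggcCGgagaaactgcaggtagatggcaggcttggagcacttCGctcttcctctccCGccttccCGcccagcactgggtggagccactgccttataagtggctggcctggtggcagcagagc

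These stretches held 30 CG dinucleotides for Epha8, 1 for Plxnb3, 11 for Epha3 and 7 for Sema3g, against a median of 9.5 over the members. The count was then taken in 300 bases at the CpG-richest start of each gene, 250 before and 50 after it. The median was 26.0 over the 64 members and 18.0 over all coding genes. Members marked in all 6 lists had a median of 28.5 (27.0 over coding genes so marked), those marked in 1 to 5 lists 25.0 (16.0), and those marked in none 20.0 (4.0). On this count the 9 members without the mark thus held more CpG than coding genes without it. A count at the richest start can be larger for a gene with more starts. Starts in at least 2 separate regions were held by 73.4% of all members and 51.2% of coding genes. The richest start also need not be the marked one, and in Epha2 and Sema6b it lay in a region marked in no list. Epha8 had the highest count of all members, 56, and no peak in any list. Epha5 and Slit1 had 32 each, also without a peak, whereas Efna4 was marked in all 6 lists with 11.

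A gene was called marked where a peak lay within 1 kb of any of its annotated starts. Guidance genes were marked more often than coding genes as a whole, most of all in the 2 vehicle lists. In Q111SST 50 of 64 members were marked, 78.1% with a 95% Wilson interval of 66.6% to 86.5%, and all coding genes gave 58.4%. In Q7SST 52 were marked (81.2%, 70.0% to 88.9%), against 59.9% of coding genes. These intervals cover counting error over genes only, and members of a family are not independent. Members also had more chances of a mark, as 73.4% of them and 51.2% of coding genes had starts in at least 2 separate regions. Among such genes 80.9% of members and 71.5% of coding genes were marked in Q111SST, and 63.8% and 66.4% in all 6 lists. Among genes with 1 region, 70.6% of 17 members and 44.6% of coding genes were marked in Q111SST.

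With the compounds fewer members were marked, by 1 with meclizine and by 10 with cyproheptadine. Cyproheptadine gave 40 members (62.5%, 50.3% to 73.3%), where coding genes gave 55.4%. DKI gave 43 (67.2%, 55.0% to 77.4%), where coding genes gave 55.8%. These 2 lists were also the shortest, and their intervals held the coding share. Loxapine gave 48 (75.0%, 63.2% to 84.0%) against 58.1%, and meclizine gave 49 (76.6%, 64.9% to 85.3%) against 58.6%. With each list held to its strongest 30758 peaks, the member shares were 76.6% in Q7SST, 73.4% in Q111SST, 59.4% under cyproheptadine, 62.5% under loxapine, 67.2% under DKI and 73.4% under meclizine. The coding shares then lay between 54.8% and 58.1%. The surplus of members also depended on the score. When only peaks with a score of 47 or more were kept, the median score of all peaks, 64.1% of members and 53.6% of coding genes were marked in Q7SST. In Q111SST the shares were then 53.1% and 52.1%, under loxapine 53.1% and 51.8%, and under meclizine 51.6% and 53.4%. Members fell below coding genes under cyproheptadine (35.9% and 46.6%) and under DKI (29.7% and 46.6%).

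**Figure D1:**
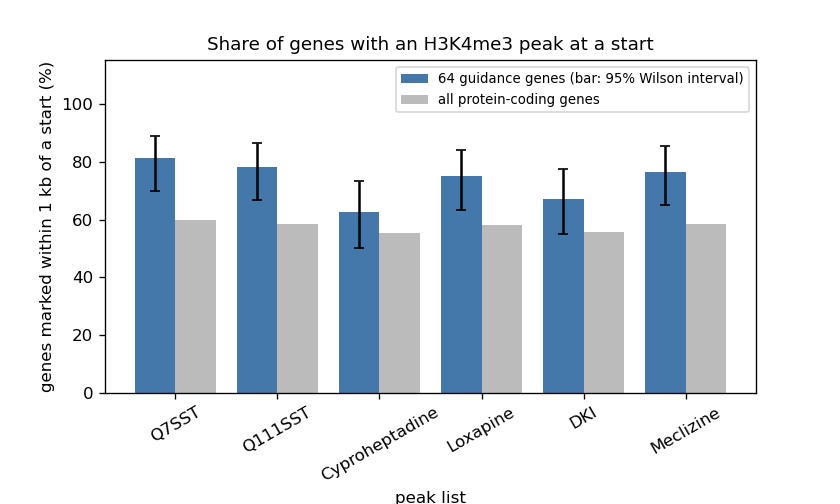
Share of genes with an H3K4me3 peak within 1 kb of a start (y axis, percent) in each of the 6 peak lists (x axis). Blue bars are the 64 guidance genes with 95% Wilson intervals and grey bars are all 21911 protein-coding genes. Members exceed coding genes in each list, and the interval holds the coding share with cyproheptadine and DKI.

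Over the 6 lists, 38 members were marked in all (59.4%, 47.1% to 70.5%), against 53.5% of coding genes. A further 17 were marked in 1 to 5 lists (26.6%, 17.3% to 38.5%), against 9.52%. The other 9 were marked in none (14.1%, 7.58% to 24.6%), against 37.0%. These classes depended on the score and the window. At a score of 47 or more, 18 members were marked in all lists (28.1%, 43.4% of coding genes) and 19 in none (29.7%, 43.0%). With a peak over a start, 27 were marked in all (42.2%, 42.3%) and 16 in none (25.0%, 42.8%). The share marked in 1 to 5 lists was above that of coding genes under both settings, 42.2% against 13.6% and 32.8% against 14.9%.

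**Figure D2:**
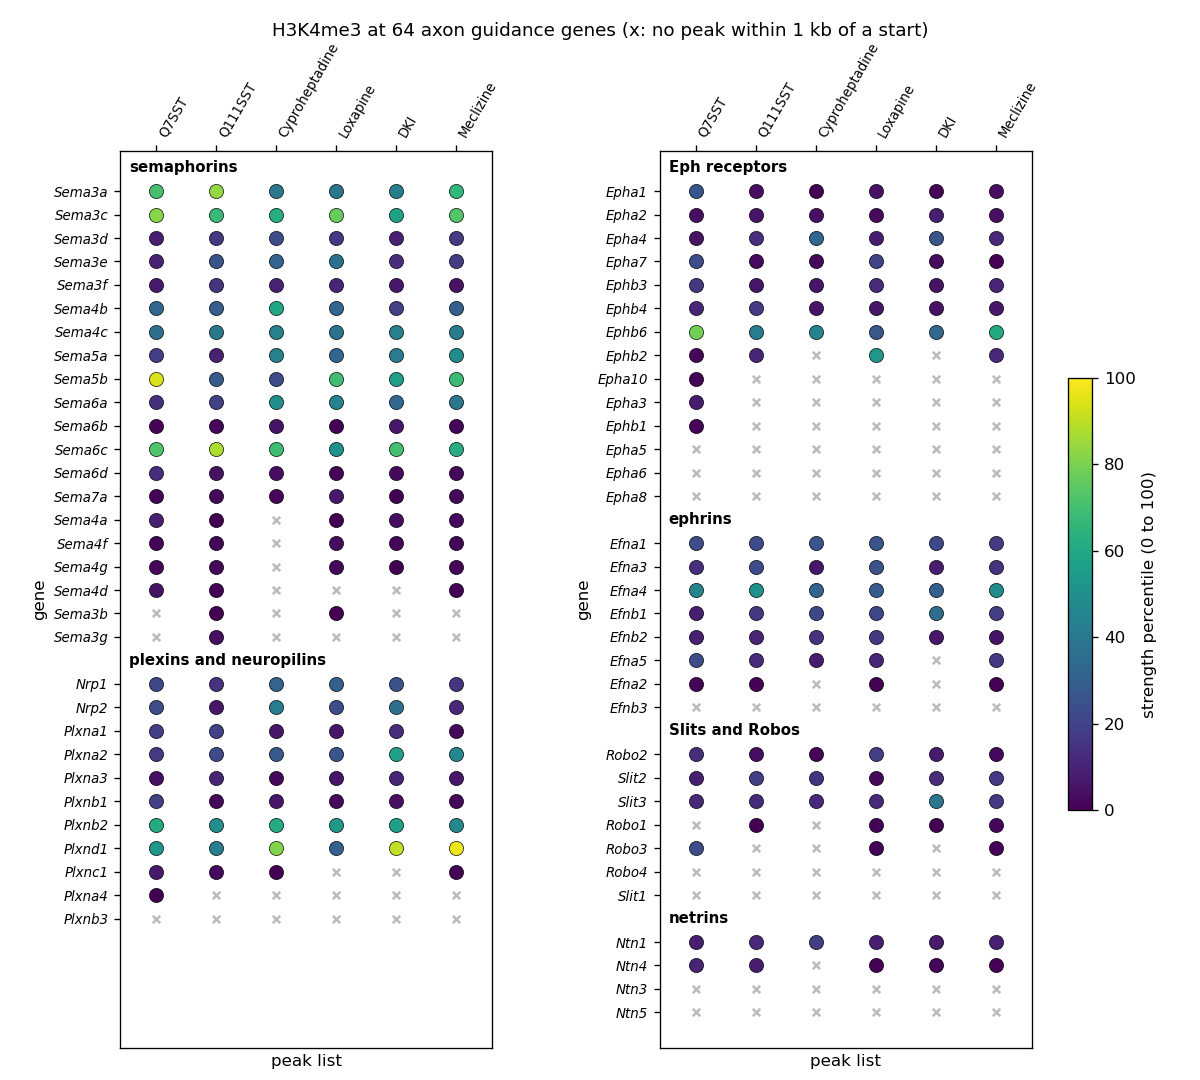
Strength percentile (colour, 0 to 100) of each of the 64 guidance genes (rows, by family) in each of the 6 peak lists (columns), with a cross where no peak lay within 1 kb of a start. Most circles are dark, all 20 semaphorins have a circle in Q111SST, and Epha10, Epha3, Ephb1 and Plxna4 have one in Q7SST alone.

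Among the ligands, the semaphorins were marked in all 6 lists at 14 of 20 genes, with 6 in some and 0 in none. The 14 fell to 12 with lists of equal size, to 8 when a peak had to lie over a start and to 8 at a score of 47 or more. All 20 were marked in Q111SST. Those marked in some lists were Sema3b and Sema3g, of the secreted class, and Sema4a, Sema4d, Sema4f and Sema4g, of a transmembrane class. Of the 8 ephrins, 5 were marked in all lists, and under the same 3 settings 5, 4 and 3 were. The families did not keep 1 order by share across these settings. The exceptions among the ephrins were Efna2 and Efna5, which are anchored by a lipid, and the transmembrane Efnb3, which was marked in no list. The secreted cues Slit2 and Slit3 were marked in all lists and Slit1 in none. Of the netrins, Ntn1, the founding attractant of commissural axons, was marked in all lists, Ntn4 in 5, and Ntn3 and Ntn5 in none.

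The receptors were as mixed. Of the 14 Eph receptors, 7 were marked in all lists, 4 in some (Ephb2, Epha3, Epha10 and Ephb1) and 3 in none (Epha5, Epha6 and Epha8). With lists of equal size 5 were marked in all lists, with a peak over a start 6, and at a score of 47 or more 2. Of the plexins and neuropilins, 8 of 11 were marked in all lists, both neuropilins among them. Plxnc1, a receptor of Sema7a, was marked in 4 lists, Plxna4 in 1 and Plxnb3 in 0. The 8 were 8, 6 and 5 under those settings. Of the Robos, Robo2 was marked in all lists, Robo1 in 4, Robo3 in 3 and the endothelial receptor Robo4 in none. Slits and Robos together had 3 genes marked in all lists, and 3, 2 and 0 under those settings.

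The genes without the mark were far from any peak, with the netrins as an exception. In Q111SST the nearest peak was 90710 bp from a start of Epha8, 270090 bp for Epha5, 192345 bp for Epha6, 12568 bp for Efnb3, 11554 bp for Plxnb3, 10388 bp for Slit1 and 8040 bp for Robo4. It was 2212 bp for Ntn3 and 1227 bp for Ntn5. The Ntn3 distance lay between 2180 and 2319 bp over the 6 lists, so both netrins counted as marked in each list once the window was widened to 5 kb.

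The strength of a promoter was the percentile of its best peak score among the 11713 coding genes marked in all 6 lists, taken within a list. The reference genes were the same in each list, whereas the members counted were those the list marked, fewer in the shorter lists. Guidance genes sat low on this scale. The median over marked members was 11.9 in Q7SST (95% interval 8.28 to 18.1), 11.9 in Q111SST (5.83 to 17.2), 19.3 under cyproheptadine (6.19 to 31.8), 14.4 under loxapine (5.85 to 25.8), 12.7 under DKI (5.95 to 30.4) and 11.2 under meclizine (3.99 to 17.4). The medians over all marked coding genes lay between 44.6 and 48.6. The 38 members marked in all lists had medians of 16.6 in Q7SST, 16.3 in Q111SST (10.6 to 22.5), 22.0 under cyproheptadine, 20.5 under loxapine, 16.4 under DKI and 16.1 under meclizine, and 34 of 38 stood below 50 in Q111SST.

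Coverage of the members was nearer to that of other promoters than their strength was. Coverage was the number of bases under peaks within 5 kb of a start. The median of the 38 members was 2215 bp in Q111SST, and that of all coding genes marked in all lists was 2159 bp. As a percentile the members' median was 52.6 (37.0 to 84.1), and 21 of 38 lay above 50. The median coverage percentile was 59.3 in Q7SST, 53.5 under loxapine and 59.4 under meclizine, but 40.5 under cyproheptadine and 48.2 under DKI. In Q111SST a score below the median together with coverage above it was found in 19 of the 38, and in 27.9% of coding genes. Coverage counts bases at every start, and so can be larger for a gene with more starts.

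The widest was Plxnb2, a receptor of class 4 semaphorins, with 4661 bp at strength percentile 49.3 in Q111SST. Next were Nrp2, a co-receptor for Sema3f, with 4566 bp at percentile 5.83, and the receptor Epha2 with 4094 bp at 5.43. The ligand Efnb2 had 3961 bp at 10.1 and Sema5a had 3881 bp at 9.25. All but Plxnb2 of these 5 lay near or below the 10th percentile of promoters marked in all lists, although their scores were above 47, the median of all peaks. Sema6c was the reverse, with the highest strength of all members in Q111SST, 87.8, over 1173 bp.

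**Figure D3:**
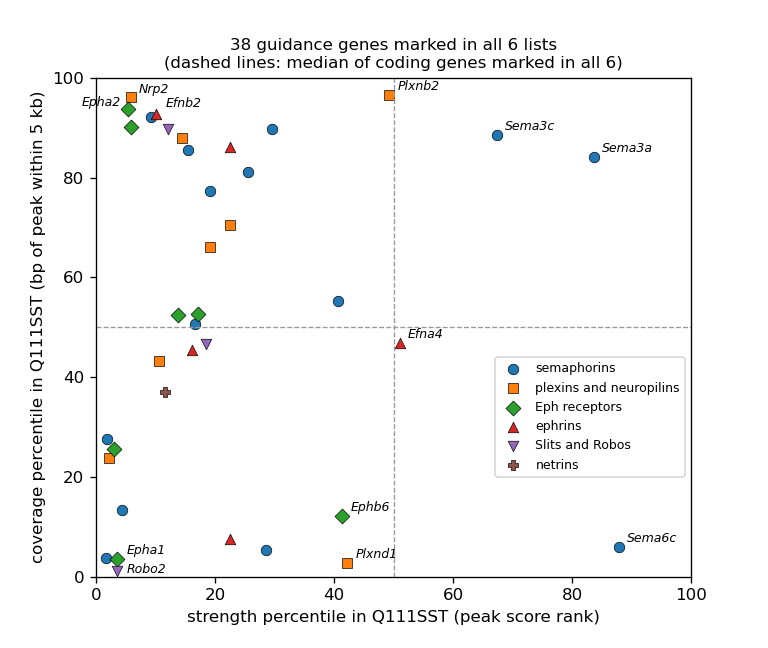
Coverage percentile (y axis) against strength percentile (x axis) in Q111SST for the 38 guidance genes marked in all 6 lists, with a symbol for each family and dashed lines at the median of coding genes. Of the 38 points 34 lie left of the vertical line and 21 above the horizontal line, with Nrp2, Epha2 and Efnb2 in the upper left and Sema6c at the lower right.

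Within families the strengths spread most widely among the semaphorins. In Q111SST the semaphorins marked in all lists ran from 1.66 for Sema7a, which is anchored by a lipid, to 87.8 for the transmembrane Sema6c. The plexins and neuropilins ran from 2.23 for Plxnb1, the receptor of Sema4d, to 49.3 for Plxnb2. The Eph receptors ran from 2.96 for Epha7 to 41.4 for Ephb6, which lacks kinase activity. The ephrins ran from 10.1 for Efnb2 to 51.0 for Efna4. Robo2 stood at 3.47, Slit2 at 18.4 and Ntn1 at 11.6.

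The first comparison set the wild type line beside the mutant line, both with vehicle. Against Q111SST, Q7SST marked 5 members more, Epha10, Epha3, Ephb1, Plxna4 and Robo3 (3.60% of coding genes were gained), and 3 fewer, Robo1, Sema3b and Sema3g (2.08% were lost). Epha10, Epha3, Ephb1 and Plxna4 were marked in Q7SST and in no list of the mutant line, as were 2.78% of coding genes.

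Epha3 had the clearest of these marks, a peak of 1744 bp with score 57 at strength percentile 7.82. It lay at chr16:63862703-63864446 (GRCm38) over starts, exon and intron of the gene. It ran from -271 to 1472 bp relative to the outermost start, where negative values lie upstream. The nearest peak in the 5 lists of the mutant line was from 93874 to 94142 bp away. The other 3 were small and weak. Ephb1, a receptor of ephrin-B ligands, had a peak of 291 bp over a start with score 27. Plxna4, a receptor partner of neuropilins, had 527 bp with score 21 that lay 745 bp from a start, and Epha10 had 581 bp with score 24 that lay 228 bp from a start. With lists of equal size Epha10 and Plxna4 were no longer marked in any list.

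Robo1, a Slit receptor, was marked in 4 lists of the mutant line and not in Q7SST. Its Q111SST peak lay at chr16:72662896-72664487 over a start, exon and intron. It had peaks of 1592 bp in Q111SST, 1152 bp under loxapine, 727 bp under DKI and 1394 bp under meclizine, while the nearest peak in Q7SST was 70895 bp from a start. Its strength percentiles were low throughout, 0.243, 0.406, 0.047 and 1.27 in those lists. With lists of equal size it was marked in 2 lists and no longer in Q111SST, and at a score of 47 or more in 0. Robo3, a relative that lets commissural axons cross the midline, had the opposite pattern between the vehicle lists. Its peak lay in an intron with score 86 in Q7SST, 26 under loxapine and 33 under meclizine. In Q111SST the nearest peak was 1427 bp from a start, just outside the window, and the gene was not a gain with a window of 5 kb.

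Among the 47 members marked in both vehicle lists, 10 stood at least 10 points higher in Q7SST and 3 at least 10 points lower (21.3% and 6.38%). Over coding genes 21.3% were higher and 20.2% lower. In Q111SST 21 of the 50 marked members stood below the 10th percentile and could not be lower by that much, so the smaller share of lower members has that limit built in. With percentiles among all peaks the balance turned, with 9 members higher (19.1%, 8.85% of coding genes) and 12 lower (25.5%, 13.0%). The largest difference was at Sema5b, a transmembrane semaphorin with thrombospondin repeats. Its scores were 202 in Q7SST, 90 in Q111SST, 59 under cyproheptadine, 142 under loxapine, 93 under DKI and 154 under meclizine. The corresponding strength percentiles were 94.2, 28.6, 23.3, 69.5, 55.6 and 68.0, so that Q7SST and cyproheptadine marked the ends and the other lists lay between. Ephb6 followed, at 78.7 in Q7SST and 41.4 in Q111SST, and Epha1 stood at 26.2 and 3.47. The members lower in Q7SST were Sema3e (9.52 against 25.6), Sema6c (72.3 against 87.8) and Sema3a (70.4 against 83.6).

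The other comparisons set each compound beside Q111SST. All 4 share that list, so the comparisons are not independent and their values are given side by side. Gains were few. Loxapine and meclizine each marked 1 member more, Robo3 in both (1.01% and 1.02% of coding genes were gained), and cyproheptadine and DKI marked 0 (0.306% and 0.269%).

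Losses were most numerous with cyproheptadine, 10 members of 64, where 3.33% of coding genes were lost. They were Sema3b, Sema3g, Sema4a, Sema4d, Sema4f, Sema4g, Efna2, Ephb2, Ntn4 and Robo1. DKI lost 7, Sema3b, Sema3g, Sema4d, Efna2, Efna5, Ephb2 and Plxnc1 (2.88%). Loxapine lost 3, Sema3g, Sema4d and Plxnc1 (1.24%), and meclizine lost 2, Sema3b and Sema3g (0.799%). Most had low strength percentiles in Q111SST. These counts depend on the list and its scores. With lists of equal size the losses were 9 under cyproheptadine (14.1%, 2.01% of coding genes), 7 under loxapine (10.9%, 1.88%), 6 under DKI (9.38%, 1.48%) and 3 under meclizine (4.69%, 0.735%). At a score of 47 or more DKI lost 15 (23.4%, 5.94% of coding genes) and cyproheptadine 11 (17.2%, 5.84%).

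The losses were therefore set beside those of coding genes of like strength. Below the 10th percentile in Q111SST stood 42.0% of marked members and 16.2% of marked coding genes. Of these weak promoters, cyproheptadine lost 9 of 21 members (42.9%) and 33.2% of 2078 coding genes. DKI lost 5 of 21 (23.8%) and 28.6%, loxapine 3 (14.3%) and 12.5%, meclizine 2 (9.52%) and 8.28%, and Q7SST 3 (14.3%) and 16.8%. These shares differed by less than 10 percentage points in each list. Among stronger members 1 was lost under cyproheptadine (Ephb2), 2 under DKI (Ephb2 and Efna5) and 0 in the other 3 lists. Of the coding genes lost, 690 of 729 were weak promoters under cyproheptadine and 595 of 632 under DKI. The near match in shares thus covers weak promoters alone, as few stronger coding genes were lost with these compounds.

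The class 4 semaphorins marked in some lists had thin marks, while their relatives Sema4b and Sema4c, marked in all, stood at strength percentiles 29.5 and 40.6 in Q111SST. Sema4a, Sema4f and Sema4g had scores of 19, 33 and 35 in Q111SST, and with cyproheptadine their nearest peaks were 3442, 4472 and 6535 bp from a start. Sema4a was marked in no list when starts of coding transcripts alone were used. Sema4d, the ligand of Plxnb1, had a peak at its outermost start with scores of 25 in Q111SST and 31 under meclizine and was unmarked with the other 3 compounds. Its best peak in Q7SST, with a score of 49, lay at another start. The secreted Sema3g had a single peak of 211 bp with score 43 in Q111SST, placed 2 bp inside its start, and its nearest peaks elsewhere were from 10565 to 10727 bp away. Sema3b had scores of 22 in Q111SST and 14 under loxapine, and its nearest peaks in the other lists were 3308 to 3753 bp away.

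For Ntn4 and Efna5 the loss was of position and not of the whole peak. Ntn4, a netrin with laminin-like domains, had 1 peak from 365 to 2701 bp inside its outermost start in Q111SST. With cyproheptadine the first part was missing and a peak from 2081 to 2777 bp remained, with the same score of 56. With loxapine, DKI and meclizine the region was held by separate peaks, the nearer of them with scores of 18, 20 and 29. Efna5 had peaks 484 bp from a start in Q111SST and 1001 bp under DKI, which put it 1 bp outside the window. Ephb2, a receptor of ephrin-B ligands, had scores of 33 in Q7SST, 61 in Q111SST, 119 under loxapine and 70 under meclizine. Its peak covered a start in Q7SST with 2573 bp, and upstream peaks of 239 to 434 bp stood in the other 3 lists. Under cyproheptadine and DKI, which lost it, the nearest peaks were 27248 and 26837 bp away. Efna2 had scores of 27 in Q7SST, 27 in Q111SST, 13 under loxapine and 20 under meclizine, and the nearest peak was 6114 bp from its start under cyproheptadine and 5870 bp under DKI. Plxnc1 was marked at different starts, so its scores are not of 1 site. At its outermost start the peak had a score of 37 in Q111SST and 29 under meclizine, whereas the best peak in Q7SST (score 53) and the peak under cyproheptadine (13) lay at starts further inside the gene. Its nearest peaks were 4569 bp away under loxapine and 4610 bp under DKI, and neither gene kept a peak near a start under DKI.

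**Figure D4:**
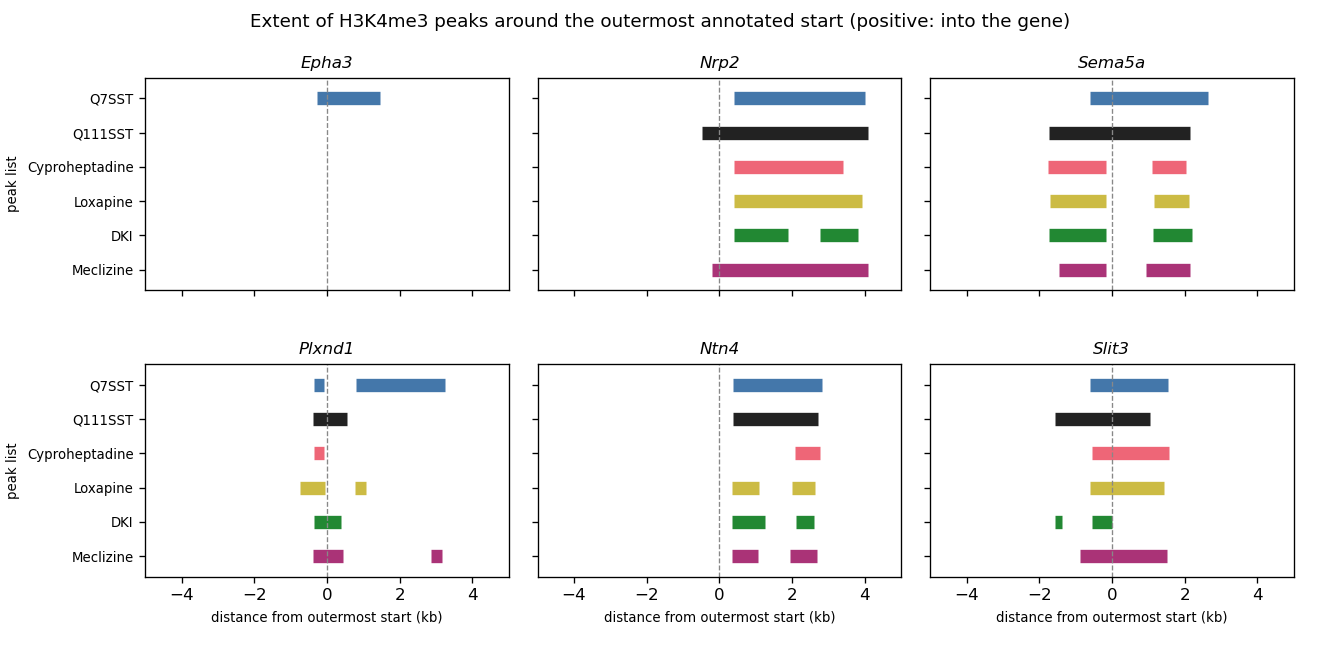
Extent of the H3K4me3 peaks (bars) in the 6 peak lists (y axis) around the outermost annotated start of 6 guidance genes, as distance in kb (x axis, positive into the gene, dashed line at the start). Epha3 has a bar in Q7SST alone, Nrp2 and Sema5a have the widest bars in Q111SST, and Ntn4 lacks the bar nearest to the start with cyproheptadine.

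Fewer bases near the starts of members lay under peaks with cyproheptadine and DKI. The median ratio of coverage to Q111SST was 0.804 under cyproheptadine (0.693 to 0.858), where coding genes gave 0.87, and 0.748 under DKI (0.603 to 0.809), where coding genes gave 0.815. It was 0.907 under loxapine (0.857 to 0.976; 0.991 over coding genes), 0.936 under meclizine (0.873 to 1.0; 0.939) and 0.99 in Q7SST (0.881 to 1.06; 0.969). Coverage was below that of Q111SST in 38 of 40 members under cyproheptadine, 42 of 43 under DKI, 33 of 47 under loxapine, 30 of 48 under meclizine and 24 of 47 in Q7SST. Coverage was thus lower in nearly all marked members with cyproheptadine and DKI, and that of coding genes was lower in the same 2 lists. It sums all peaks near the starts, so a single peak could still be wider. The strongest Sema3a peak was 1579 bp wide in Q111SST, 2245 bp under cyproheptadine and 2145 bp under DKI.

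Strength percentiles moved in both directions with each compound. At least 10 points higher than in Q111SST were 8 of 40 members under cyproheptadine (20.0%, 21.1% of coding genes), 9 of 47 under loxapine (19.1%, 18.5%), 10 of 43 under DKI (23.3%, 22.8%) and 6 of 48 under meclizine (12.5%, 15.6%). At least 10 points lower were 6 under cyproheptadine (15.0%, 22.0% of coding genes), 8 under loxapine (17.0%, 19.4%), 7 under DKI (16.3%, 24.3%) and 5 under meclizine (10.4%, 15.3%). On this scale the shares were near or below those of coding genes. Both this and the balance rest on the scale. With percentiles among all peaks of a list, 3 members were higher under cyproheptadine (7.5%, 3.48% of coding genes) and 19 were lower (47.5%, 25.9%). Under DKI 4 were higher (9.3%, 3.55%) and 27 lower (62.8%, 38.8%). Among coding genes too, more were lower than higher in these 2 lists, and the share of members was larger in each direction. Over the 6 lists, the percentile of a member marked in all of them ranged over 18.1 points in the median, and that of a coding gene over 23.6. Of the genes marked in Q111SST, 42.0% of members and 16.2% of coding genes stood below the 10th percentile there. Such genes could not be lower by 10 points, so the shares of lower members and the range have that limit built in.

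Sema3a, a secreted repellent that acts through Nrp1, was among the strongest members in the vehicle lists. Its scores were 146 in Q7SST, 164 in Q111SST, 76 under cyproheptadine, 101 under loxapine, 79 under DKI and 151 under meclizine. The percentiles were 70.4, 83.6, 40.1, 38.9, 42.7 and 65.9, so the vehicle lists were the highest and meclizine the nearest to them. The transmembrane Sema6c gave 72.3, 87.8, 68.4, 50.2, 70.2 and 62.2 in the same order, with Q111SST highest and loxapine lowest. Ephb4, the receptor of Efnb2 in vessels, gave 10.8, 17.2, 5.25, 5.49, 4.56 and 6.3. Efna4 gave 45.5, 51.0, 31.8, 28.7, 30.4 and 48.4, lower by over 10 points under 3 compounds and by less under meclizine. Sema3a and Sema6c were the highest of all members in Q111SST, so they had the most room to be lower.

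Sema5a and Sema6a are both transmembrane semaphorins. Sema5a gave percentiles of 18.1 in Q7SST, 9.25 in Q111SST, 43.3 under cyproheptadine, 32.9 under loxapine, 41.7 under DKI and 47.6 under meclizine. Its peak changed in shape as well. In Q111SST a single peak with score 58 ran from -1725 to 2155 bp relative to the outermost start, and with each compound 2 peaks flanked the start and left it uncovered. The upstream peak then had scores of 79, 93, 78 and 125 under cyproheptadine, loxapine, DKI and meclizine, and the inner peak 31, 25, 21 and 32. The start of the noncoding gene Snhg18 lay under the strongest Sema5a peak in both vehicle lists, so the peak there cannot be assigned to 1 of the 2 genes. Sema6a gave 14.0, 19.1, 49.7, 43.9, 33.3 and 39.8, with the vehicle lists lowest.

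Plxnd1, the receptor of Sema3e, had the strongest mark of all members under meclizine. Its scores were 124 in Q7SST, 107 in Q111SST, 122 under cyproheptadine, 90 under loxapine, 151 under DKI and 247 under meclizine. The percentiles were 53.5, 42.2, 81.4, 30.8, 90.6 and 97.3, so loxapine alone lay below Q111SST. The peak that carried these scores was between 253 and 953 bp wide and lay at or just before the start. Its ligand gene Sema3e gave 9.52, 25.6, 31.8, 37.4, 13.4 and 17.9, and the highest and lowest lists were not those of the receptor.

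The neuropilins are co-receptors of the secreted semaphorins. Nrp2 gave percentiles of 22.7 in Q7SST, 5.83 in Q111SST, 41.1 under cyproheptadine, 22.9 under loxapine, 36.0 under DKI and 11.6 under meclizine. Its widest peak, 4566 bp in Q111SST, had the lowest score of the 6, 50, and its 2988 bp peak with cyproheptadine had a score of 77. Nrp1, the co-receptor of Sema3a, gave 21.4, 14.4, 31.8, 30.1, 25.0 and 15.3. For both genes Q111SST was the lowest list.

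**Figure D5:**
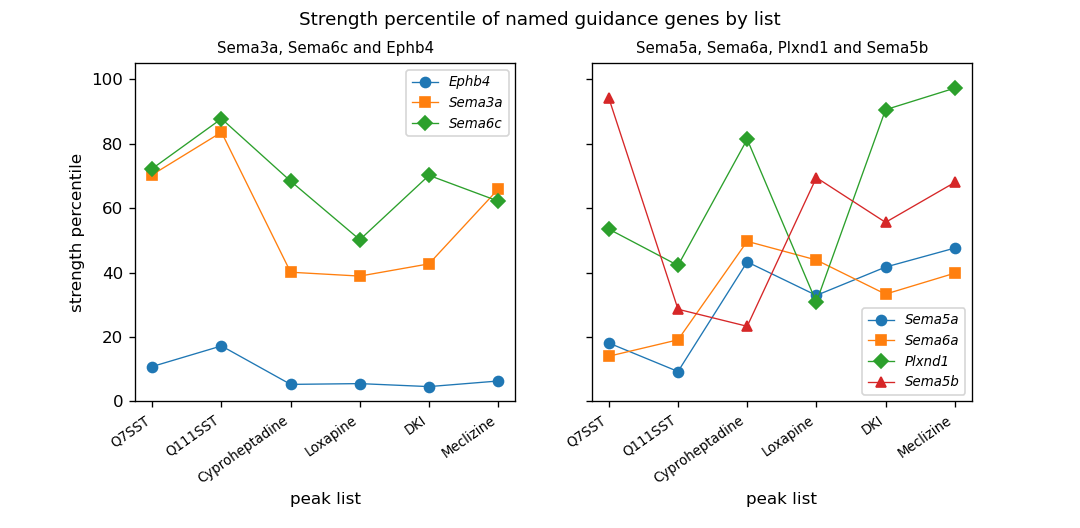
Strength percentile (y axis) in each of the 6 peak lists (x axis) for 7 guidance genes, with lines that only guide the eye. Sema3a and Sema6c are highest in Q111SST, Sema5a and Sema6a are highest with a compound, Plxnd1 reaches 97.3 under meclizine, and Sema5b is highest in Q7SST.

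Other large differences were less even over the compounds. Plxna2 gave 17.5 in Q7SST, 22.5 in Q111SST, 28.0 under cyproheptadine, 25.8 under loxapine, 56.4 under DKI and 46.1 under meclizine. Plxna1 gave 18.1, 19.1, 5.7, 5.85, 12.7 and 2.56, with meclizine lowest, and the peak behind these values lay in an intron from 530 to 893 bp away from a start. With a window of 5 kb the meclizine value of Plxna1 was instead 34.2 points above that of Q111SST. Ephb2 stood at 53.4 under loxapine and 10.6 in Q111SST, on an upstream peak of 239 bp. Slit3 was at 39.8 under DKI and between 11.2 and 16.9 in the other 5 lists.

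The rest of the pathway was read from lists of genes that act beside these families. For comparison with the counts that follow, 53.5% of all coding genes were marked in all 6 lists, 9.52% in some and 37.0% in none. Of 20 other guidance receptors and ligands, 9 were marked in all 6 lists, 3 in some and 8 in none. The netrin receptor Dcc and its partners Unc5a and Unc5d were without the mark, while Neo1, Unc5b and Unc5c had it in all lists. Flrt3, an adhesion protein that binds Unc5 and Robo receptors, was at percentile 99.7 in Q111SST, above any member of the 64. Unc5b stood at 38.8 in Q7SST, 27.9 in Q111SST, 92.6 under cyproheptadine, 48.6 under loxapine, 81.6 under DKI and 43.4 under meclizine. Of 30 intracellular effectors, from the small GTPases Rac1 and Rhoa to cofilin and its kinase Limk1, 28 were marked in all 6 lists and 2, Dpysl4 and Crmp1, in none. Their median strength percentile in Q111SST was 27.1, that of the marked genes among the 20 receptors and ligands was 27.9, and that of the marked members was 11.9.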

How the data were processed

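Chromatin of STHdh cells was digested with micrococcal nuclease, precipitated with an H3K4me3 antibody and sequenced as single-end reads. The submitters' processing notes name Trimmomatic 0.36, Bowtie2, SAMtools 1.3, MACS2 and the build mm10 (GRCm38), without roles or settings. The authors deposited 6 peak lists with a whole-number score per peak. The lowest score was 10 in each, the scale of the score and any input control were not given in the sources used here, and read totals were not used, so depth is unknown. Whether triplicates were pooled into a list was not given either. No peak ran past the end of any of 21 chromosomes.

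Groups came from the sample labels. Starts came from GENCODE M21, with genes of 1 symbol counted once, and sequences from the GRCm38 assembly of NCBI. Strength percentiles are mid-ranks. Intervals are 95% Wilson intervals for shares and order-statistic intervals for medians. A difference of 10 percentile points is a fixed size and not a test. Named genes were all members marked in fewer than 6 lists, the strongest and weakest of each family in Q111SST, the 3 largest differences per direction and comparison, and the 5 widest. Other named genes were chosen after their values were seen, or came from the pathway and cell marker lists. Some marker genes and 1 promoter sequence are not reported here. The members and lists were chosen with earlier results of these data known.

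Alternatives were a peak over a start, a window of 5 kb, peaks within 1 kb merged, lists of equal size, a score of at least 47, starts of coding transcripts alone, percentiles among all peaks of a list and, chosen after seeing the data, the 4 longer lists alone. Scripts ran in Python 3.11.15 with numpy 2.4.6, pandas 2.3.3, scipy 1.17.1 and matplotlib 3.10.9, and were tested on simulated data.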

Additional observations from a re-analysis of the deposited data

How the results depend on the processing

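Unknown depth and 1 list per condition limit every count, and the scores of these genes were low against other coding promoters, not against all peaks. No paired analysis was possible because the lists carry no replicate numbers to pair and no test was run. Of the values that answer a comparison under an alternative, 177 stayed near the reported value and 54 moved, and the cause was not tested where the construction of the alternative does not show it. Merging peaks within 1 kb moved none of its 21 such values, and the 4 longer lists alone gave 45 members marked in all and 9 in none.

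Requiring a peak over a start put 16 members in none, with 6 lost in Q7SST and 6 under loxapine, and 1 gained with cyproheptadine, 2 under DKI and 2 under meclizine. Semaphorins then numbered 8 in all lists and 1 in none, and none held 3 plexins and neuropilins, 5 Eph receptors and 2 ephrins. With 5 kb cyproheptadine lost 6 and meclizine 1, loxapine and meclizine gained 0, and netrins numbered 4 in all lists and 0 in none. The difference of Plxna1 with meclizine turned to 34.2 points. Coding shares gained or lost were not computed with a peak over a start or with 5 kb, so those gains and losses cannot be set against them. With equal lists loxapine gained 0 (0.598% of coding genes) and lost 7 (10.9%, 1.88%). DKI then gained 2 (3.12%, 0.84%) and meclizine 3 (4.69%, 1.19%), and none held 1 semaphorin and 2 plexins and neuropilins. With starts of coding transcripts none held 1 semaphorin, Sema4a.

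A score of at least 47 left 23 members marked with cyproheptadine and 19 under DKI, 18 in all lists and 19 in none. Gained were 10 in Q7SST (15.6%, 3.55% of coding genes) and 3 under loxapine (4.69%, 1.22%). Lost were 15 with DKI (23.4%, 5.94%) and 11 with cyproheptadine (17.2%, 5.84%). All lists then held 8 semaphorins, 5 plexins and neuropilins, 2 Eph receptors, 3 ephrins, 0 Slits and Robos and 0 netrins, and none held 5, 2, 5 and 2 of the first 4 families. Percentiles among all peaks gave medians of 61.1 in Q7SST, 63.9 in Q111SST, 61.6 under cyproheptadine, 63.8 under loxapine, 48.9 under DKI and 59.4 under meclizine. Members lower by 10 points were then 12 in Q7SST (25.5%, 13.0% of coding genes; 9 were higher), 19 under cyproheptadine (47.5%, 25.9%), 13 under loxapine (27.7%, 9.41%), 27 under DKI (62.8%, 38.8%) and 12 under meclizine (25.0%, 10.0%), and 3 were higher with cyproheptadine and 4 under DKI.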

Other observations

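Several members carried the mark at more than 1 start. Ephb3, Plxnb2, Sema3d and Sema4b had at least 2 separate start regions marked in all 6 lists, 4 of the 38 members marked throughout (10.5%), and 7.37% of coding genes so marked had as many. Among those with at least 2 start regions to mark, the shares were 13.3% and 11.6%. In Sema3d the regions began at 12383385 and 12575794 on chromosome 5 (GRCm38), and in Sema4b at 80186841 and 80198441 on chromosome 7.

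Peaks also lay inside some members away from any start. Efna5 held 8 such peaks in Q7SST, 7 in Q111SST, 5 under cyproheptadine, 8 under loxapine, 5 under DKI and 5 under meclizine. Epha6, without a mark at its starts, held 2 in Q111SST, 2 under cyproheptadine, 2 under loxapine, 1 under meclizine and 0 in the other 2 lists. Of the 282 strongest peaks of members, 0 lay over a start of another coding gene and 63 lay over no start at all. The start of a noncoding gene lay under the strongest peak of 9 members, among them Efna4, Epha4 and Sema4c.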
